A study of Mus musculus with 7 samples.

Results

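The 6 adult globin gene copies listed in the expression table, out of 17920 genes, were Hba-a1 and Hba-a2 of the alpha cluster and Hbb-bs, Hbb-bt, Hbb-b1 and Hbb-b2 of the beta cluster. They were taken by symbol from a list drawn up with knowledge that Hbb-b1 and Hbb-b2 separated the genotypes in these libraries, so every difference between genotypes given for the 6 copies is a description and carries no test. Spleen RNA was sequenced from wild-type mice and from mice labelled deficient in GdX, the ubiquitin-like protein UBL4A encoded by X-linked Ubl4a, a chaperone factor for tail-anchored membrane proteins. All mice were 8 weeks old, were labelled C57BL/6, and had received the bacterial endotoxin lipopolysaccharide (LPS) intraperitoneally at 20 mg/kg. At 90 min each genotype had 2 libraries, and at 6 h there were 2 of wild-type spleen and 1 of GdX-deficient spleen. The mutant is written GdX-/Y in the treatment text and GdX-/- in the genotype label, the spleen was processed whole, and no untreated spleen was analysed here. The labels give no construct, embryonic stem cell source or breeding history for the mutant, and do not say that each library came from a different mouse, so the p-values measure only the spread between these libraries.

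Haemoglobin is a tetramer of alpha-type and beta-type chains, each holding a heme group, and adult mice make both chains in the maturing red cells of marrow and spleen. The alpha genes lie together on chromosome 11 and the beta genes together on chromosome 7. Both genes of an adult pair produce chains, whereas Hba-x, Hbb-y and Hbb-bh1 serve the embryo. Laboratory strains carry alternative beta haplotypes: C57BL strains carry the s haplotype, with Hbb-bs and Hbb-bt, and strains such as BALB/c and 129 carry the d haplotype, with Hbb-b1 (beta-major) and Hbb-b2 (beta-minor). Mouse spleen is an erythropoietic organ and also stores and clears red cells.

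In the RefSeq annotation of GRCm38.p6, Hba-a1 (Entrez gene 15122) occupies chr11:32283672-32284486 and Hba-a2 (110257) chr11:32296492-32297310. Hbb-bs (100503605) occupies chr7:103826523-103827928 and Hbb-bt (101488143) chr7:103812524-103813923. Hbb-b1 (15129) and Hbb-b2 (15130) are listed at positions 38285 to 39684 and 53494 to 54867 of a sequence assigned to chromosome 7. These positions were not used to place them relative to Hbb-bs and Hbb-bt, which are the alternative haplotype of the beta genes. The coding sequences of the first pair are nearly the same: 1 of 429 bases differed between Hba-a1 and Hba-a2, at base 381 counted from the A of the start codon. Between Hbb-bs and Hbb-bt 1 of 444 bases differed, at base 417. The stretches around these bases, read from the GENCODE M21 transcripts, are shown because they bear on how fragments can be told apart between copies; the differing base is in capitals.

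Hba-a1: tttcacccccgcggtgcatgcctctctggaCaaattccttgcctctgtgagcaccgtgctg

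Hba-a2: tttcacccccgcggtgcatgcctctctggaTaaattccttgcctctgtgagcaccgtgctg

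Hbb-bs: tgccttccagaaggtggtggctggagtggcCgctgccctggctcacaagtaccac

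Hbb-bt: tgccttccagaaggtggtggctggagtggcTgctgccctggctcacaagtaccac

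The alpha stretches cover bases 351 to 411 and the beta stretches the last coding bases from 387 on, without the stop codon. Fragments that lie within the shared coding sequence fit either copy, and how the authors divided such fragments is not given in the sources used here. The level of a single copy is therefore less certain than the sum over its cluster.

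The 250 bases before each transcript start are shown because the copies of a cluster share their surroundings and had similar folds over time. Capitals mark, on either strand, the letters CACCC (found in the box bound by Klf1-type factors), the letters CCAAT (found in the box of that name), the letters TATAA (part of the TATA box) and the letters GATAA (the core bound by GATA factors). The windows are chr11:32283422-32283671 (plus strand), chr7:103827929-103828178 (minus strand) and chr7:103813924-103814173 (minus strand) of GRCm38.p6, printed in the direction of transcription from RefSeq.

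Hba-a1: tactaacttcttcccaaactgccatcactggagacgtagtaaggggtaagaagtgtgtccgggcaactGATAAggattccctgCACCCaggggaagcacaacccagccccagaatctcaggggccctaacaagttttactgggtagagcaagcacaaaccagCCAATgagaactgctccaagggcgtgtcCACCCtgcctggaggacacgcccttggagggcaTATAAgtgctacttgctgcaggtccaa

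Hbb-bs: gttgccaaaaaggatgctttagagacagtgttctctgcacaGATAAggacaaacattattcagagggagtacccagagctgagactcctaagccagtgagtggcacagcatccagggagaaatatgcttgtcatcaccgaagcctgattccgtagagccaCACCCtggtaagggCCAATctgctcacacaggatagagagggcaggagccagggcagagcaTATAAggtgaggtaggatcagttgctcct

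Hbb-bt: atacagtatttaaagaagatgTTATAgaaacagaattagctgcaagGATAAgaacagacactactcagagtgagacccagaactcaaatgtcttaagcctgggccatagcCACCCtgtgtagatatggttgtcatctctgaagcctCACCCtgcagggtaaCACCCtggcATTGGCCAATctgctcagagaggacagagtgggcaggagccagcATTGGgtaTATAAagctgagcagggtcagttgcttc

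The Hba-a2 window (chr11:32296242-32296491, plus strand) matched that of Hba-a1 at 247 of 247 bases once shifted by 3 bases, so it is not repeated. The Hbb-bs and Hbb-bt windows were identical at 178 of 257 aligned positions. TATAA began 27 bases before the start in Hba-a1, 29 in Hbb-bs and 28 in Hbb-bt, each on the gene's own strand. CCAAT began 88, 76 and 75 bases before the start in the same order, and the nearest CACCC began 60, 90 and 89 bases before it. Hbb-bt held 3 matches to CACCC, Hba-a1 2 and Hbb-bs 1. In Hbb-bt a reverse-strand CCAAT match directly adjoined the forward one, and 1 further CCAAT match and 1 further match to TATAA lay on the opposite strand. Among 32851 RefSeq promoters of the same length, 52.0% held CACCC on either strand and 33.8% held CCAAT. The letters TATAA were in 22.8% of them and the letters GATAA in 22.6%. The first 3 of these motifs occurred together in 3.28% of promoters and in all 4 globin windows. These matches are letters in a window and were not tested for binding.

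The libraries had comparable depth. Values were deposited as FPKM, that is fragments scaled by transcript length and by the mapped fragments of the library, without counts. From the steps between low values each library was estimated at 18200000 to 20300000 fragments, an estimate that placed 73.0% to 78.9% of low values within 0.2 of a whole fragment, and 1 fragment on the Hbb-bs transcript then equals 0.0784 to 0.0875 FPKM. Ubl4a was measured at 5.62 and 7.50 FPKM in wild type against 4.03 and 5.69 FPKM in the mutant at 90 min, and at 11.88 and 14.01 against 10.56 FPKM at 6 h. The Ubl4a values overlapped at 90 min and so do not by themselves show the loss of the gene. Gm44504, which overlaps Ubl4a, stood at 14.52 to 51.1 FPKM in the wild-type and 0.66 to 1.86 FPKM in the GdX-deficient libraries. The red cell markers Slc4a1 and Alas2 were present in every library (lowest 14.61 FPKM), as were markers of B cells, T cells, neutrophils and red pulp macrophages.

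Hba-a1, the alpha gene with the higher level, was the most abundant transcript of all 7 libraries. Its level was 67395 and 49545 FPKM in wild-type and 75148 and 51801 FPKM in GdX-deficient spleen at 90 min. At 6 h the values were 31172 and 16767 FPKM in wild type and 27598 FPKM in the GdX-deficient library. The genotypes overlapped at both times. In wild type both 6 h libraries were below both 90 min libraries, as was the case for 27.6% of tested genes. The GdX-deficient 6 h library was at least 2-fold lower and outside its 90 min pair, as were 1.64% of tested genes.

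Hba-a2, the other adult alpha gene, likewise overlapped between genotypes at both times and was ordered in the same way over time. It stood at 37987 and 27854 FPKM in wild-type and 43001 and 26573 FPKM in GdX-deficient spleen at 90 min, then at 18524 and 9788 FPKM in wild type and 15528 FPKM in GdX-deficient spleen at 6 h. Hba-a1 made up 62.7% to 66.1% of the summed alpha FPKM, 63.9% ± 1.07 (SD, n = 7 libraries of all groups). The division between the alpha copies thus varied by a few percentage points while their sum ranged from 26555 to 118149 FPKM.

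Hbb-bs, the more abundant adult beta gene of the s haplotype, was lower in every GdX-deficient library than in the wild-type libraries of the same time. It measured 54520.02 and 42014 FPKM in wild type against 38737 and 27637 FPKM in GdX-deficient spleen at 90 min, and 18786 and 16267 against 14413 FPKM at 6 h. The log2 difference (GdX-deficient minus wild type, here and below on the scale of log2 of FPKM + 1) was -0.55 at 90 min and -0.28 at 6 h. With 1 library left out it ranged from -0.79 to -0.31 at 90 min and from -0.38 to -0.17 at 6 h.

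Hbb-bt, the less abundant gene of that haplotype, was ordered the same way. It measured 14502 and 10699 FPKM in wild type against 8470.04 and 6977 FPKM in GdX-deficient spleen at 90 min, and 4921 and 3728 against 3194 FPKM at 6 h. The log2 difference was -0.70 at 90 min (-0.92 to -0.48 with 1 library left out) and -0.42 at 6 h (-0.62 to -0.22). Of all 11378 tested genes, 23.4% lay lower in both GdX-deficient libraries without overlap at 90 min, and 25.3% lay lower in the GdX-deficient library at 6 h, so the absence of overlap is common in this design.

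Hbb-b1, the beta-major gene of the d haplotype, was at a low level in wild type and among the most abundant transcripts in GdX-deficient spleen. Wild-type levels were 13.8 and 8.11 FPKM at 90 min, then 7.50 and 6.70 FPKM at 6 h. GdX-deficient levels were 44998 and 32880.23 FPKM at 90 min, then 16577 FPKM at 6 h. No library lay in between: Hbb-b1 ranked second in each GdX-deficient library and between 4444 and 7161 in the wild-type ones.

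Hbb-b2, the beta-minor gene, had the same pattern. It stood at 3.59, 4.68, 3.68 and 1.55 FPKM in the wild-type libraries (90 min first) and at 11053, 8278 and 4059 FPKM in the GdX-deficient ones. At 90 min the group means differed by 3554-fold for Hbb-b1 and 2337-fold for Hbb-b2, and at 6 h by 2335-fold and 1552-fold. At 90 min 0.0176% of tested genes were called by limma with Benjamini-Hochberg adjustment, namely these 2, and since they were chosen by that contrast nothing is read from the count.

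**Figure D1:**
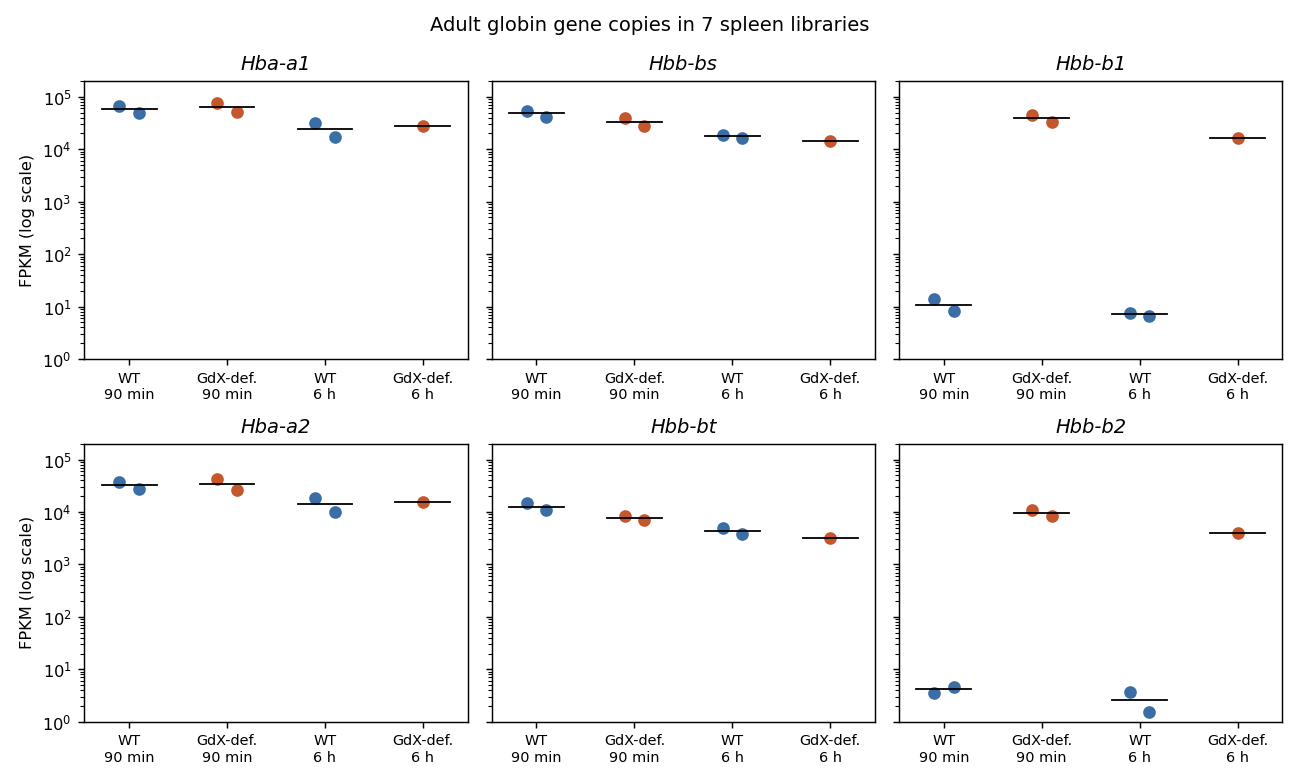
FPKM (log axis) of each adult globin copy in the 7 libraries, by genotype and time; points are libraries, bars are group means, and GdX-def. is GdX-deficient. Both alpha copies and the copies Hbb-bs and Hbb-bt were high in every library, whereas Hbb-b1 and Hbb-b2 were at most 13.8 FPKM in wild type and at least 4059 FPKM in GdX-deficient spleen.

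To show how far apart the genotypes were, the lowest GdX-deficient value was divided by the highest wild-type value after adding 1 FPKM to both. This ratio was 1120 for Hbb-b1 and 715 for Hbb-b2, the highest of all tested genes. Since these genes were chosen with that separation known, nothing is read from their rank. The next gene, Serpina3i, of the serine protease inhibitor family, had a ratio of 2.82, with a lowest GdX-deficient level of 15.24 FPKM and a highest wild-type level of 4.75 FPKM. In all, 10.2% of tested genes had every GdX-deficient library above every wild-type one.

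In wild type the small Hbb-b1 signal was 0.0193% to 0.0412% of the Hbb-bs level, and the Hbb-b2 signal 0.0248% to 0.0748% of the Hbb-bt level. In GdX-deficient spleen Hbb-b1 was 116% and 119% of Hbb-bs at 90 min and 115% at 6 h, and Hbb-b2 was 119% to 130.5% of Hbb-bt. Each d gene thus exceeded its s counterpart in all 3 GdX-deficient libraries. Whether the wild-type signal came from the d genes or from fragments of the similar s genes was not tested.

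The composition of the beta sum was nearly constant within a genotype. Hbb-b1 and Hbb-b2 together made up 54.3%, 54.3% and 54.0% of the adult beta FPKM in the GdX-deficient libraries, 54.2% ± 0.198 (SD, n = 3, both times), and at most 0.0471% in wild type. Within the GdX-deficient libraries Hbb-b1 accounted for 43.3% to 43.6%, Hbb-b2 for 10.6% to 10.9%, Hbb-bs for 36.5% to 37.7% and Hbb-bt for 8.20% to 9.21%. Each share at 6 h lay within about 1 percentage point of its values at 90 min, while the beta sum was lower. The major gene had a like share of each haplotype: Hbb-b1 was 79.9% to 80.3% of the d sum in GdX-deficient spleen, and Hbb-bs was 79.0% to 82.1% of the s sum over all 7 libraries. All 7 libraries carry the same C57BL/6 label. Which haplotypes the mice carried was not tested here, and it cannot be told apart from genotype in these groups.

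**Figure D2:**
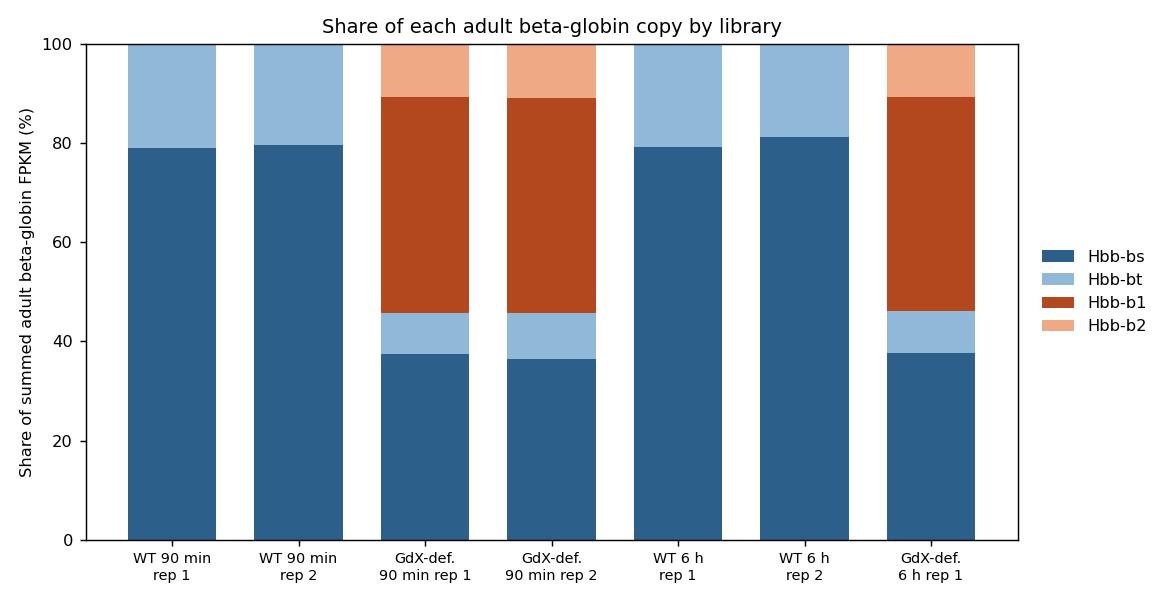
Share of each copy in the summed adult beta-globin FPKM (%), stacked to 100, for the 7 libraries. Hbb-b1 and Hbb-b2 fill 54.0% to 54.3% of the bar in the 3 GdX-deficient libraries and are too small to see in the wild-type ones.

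Summing the copies changed the direction seen for the s genes. The adult beta sum was 69039.6 and 52726 FPKM in wild type and 103258 and 75772 FPKM in GdX-deficient spleen at 90 min, a log2 difference of 0.55. At 6 h it was 23718.5 and 20003 FPKM in wild type and 38242 FPKM in the GdX-deficient library, a log2 difference of 0.81. The beta sum was higher in GdX-deficient spleen at both times while Hbb-bs plus Hbb-bt alone was lower, by log2 differences of -0.58 and -0.31. The lower s genes depended on scaling: after rescaling to an equal FPKM sum without the 6 copies, Hbb-bs had 0.00021 and Hbb-bt -0.14 at 6 h, and -0.34 and -0.49 at 90 min. With quantile normalization Hbb-bs had -0.94 and Hbb-bt -0.29 at 6 h, and -0.63 and -1.37 at 90 min. Without overlap, 24.1% of tested genes were higher in GdX-deficient spleen at 90 min and 54.9% at 6 h.

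The alpha sum overlapped between genotypes in the FPKM as deposited. It was 105382 and 77399 FPKM in wild type against 118149 and 78375 FPKM in GdX-deficient spleen at 90 min, and 49696 and 26555 against 43126 FPKM at 6 h. The log2 differences of 0.09 and 0.25 were within the spread of the libraries. They depended on scaling. After rescaling to an equal FPKM sum without the 6 copies, Hba-a1 had 0.32 at 90 min and 0.55 at 6 h. Hba-a2 then had 0.26 and 0.48. The sign for Hba-a1 depended on single libraries: at 90 min it ranged from -0.16 without the first GdX-deficient replicate to 0.38 without the second, with -0.11 without the second wild-type replicate, and at 6 h from -0.18 without the second wild-type replicate to 0.72 without the first.

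The ratio of alpha to beta FPKM was accordingly lower in the GdX-deficient libraries. It was 1.53 and 1.47 in wild type and 1.14 and 1.03 in GdX-deficient spleen at 90 min, and 2.10 and 1.33 against 1.13 at 6 h. Over both times it was 1.60 ± 0.338 (SD, n = 4) in wild type and 1.10 ± 0.0592 (SD, n = 3) in GdX-deficient spleen, without overlap. Against the s genes alone the order turned around: alpha divided by Hbb-bs plus Hbb-bt was 2.50, 2.26 and 2.45 in the GdX-deficient libraries and 1.33 to 2.10 in wild type. The sum of all 6 copies took 22.3% and 19.2% of the FPKM of a wild-type library and 30.9% and 23.5% of a GdX-deficient one at 90 min, then 9.46% and 7.73% against 13.6% at 6 h.

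**Figure D3:**
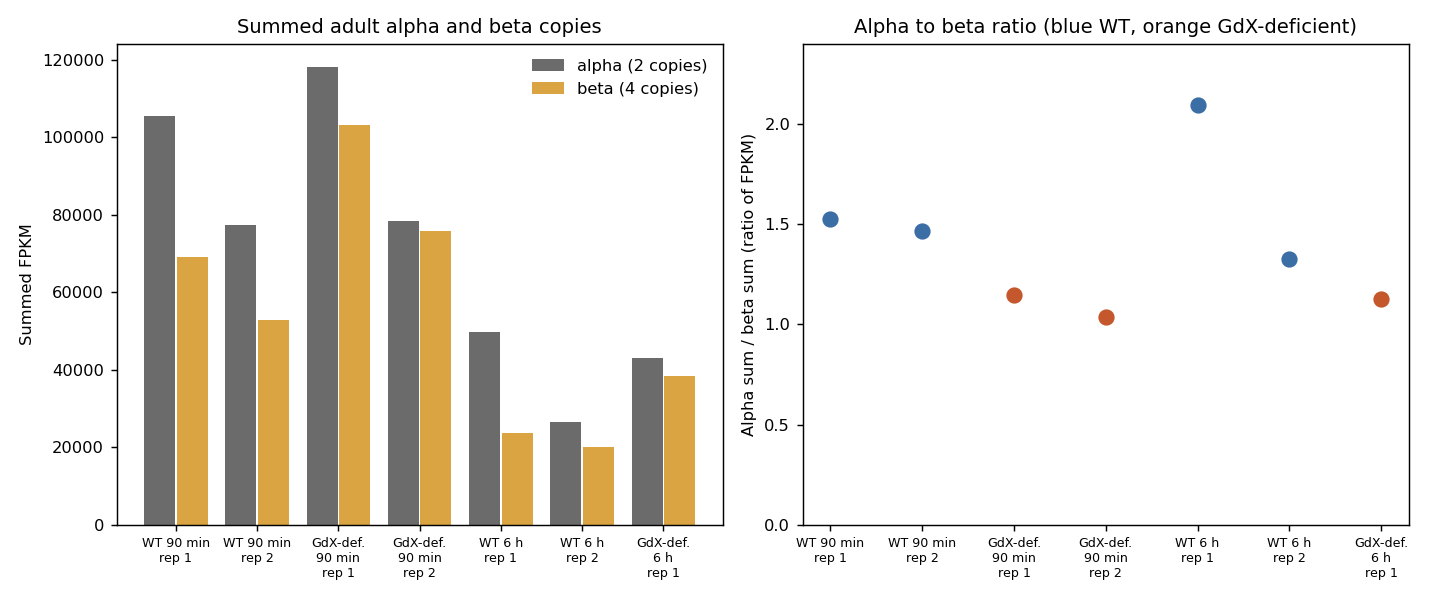
Left, summed FPKM of the 2 alpha and 4 beta copies in each library; right, the alpha to beta ratio, wild type in blue and GdX-deficient in orange. The ratio lies between 1.03 and 1.14 in the 3 GdX-deficient libraries and between 1.33 and 2.10 in the 4 wild-type libraries.

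Group means of all 6 copies were lower at 6 h than at 90 min after LPS in both genotypes, and in wild type 1 of them, Hbb-bt, passed the test. Of 11378 genes, 6.32% were called lower and 4.39% higher over time in wild type by limma with Benjamini-Hochberg adjustment (719 and 499 genes). After rescaling to an equal FPKM sum without the 6 copies, the split was 517 lower and 191 higher. This contrast was not used to choose the copies.

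In wild type Hba-a1 went from 58470 ± 12622 (SD, n = 2) to 23970 ± 10186 FPKM (SD, n = 2), a log2 difference of -1.34 (SE 0.57, limma adjusted p = 0.161), and Hba-a2 had -1.27 (SE 0.54, limma adjusted p = 0.157). Neither alpha gene passed the threshold of 0.05. Hbb-bs had a log2 difference of -1.45 (SE 0.49, limma adjusted p = 0.0914). Hbb-bt fell by 1.54 log2 units (SE 0.39, limma adjusted p = 0.0370), a change of 2.91-fold between group means, against 2.75-fold for Hbb-bs, 2.44-fold for Hba-a1 and 2.33-fold for Hba-a2. The 4 genes had no overlap between the times, and 27.6% of all tested genes were lower without overlap. In wild type the low copies had smaller differences, -0.52 for Hbb-b1 (SE 0.31, limma adjusted p = 0.297) and -0.56 for Hbb-b2 (SE 0.33, limma adjusted p = 0.290), with overlap for Hbb-b2. The size of both depended on single libraries. With 1 library left out the difference ranged from -0.87 to -0.17 for Hbb-b1 and from -1.0017 to -0.13 for Hbb-b2.

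The Hbb-bt call did not hold in every fit. Its log2 difference was -1.32 and -1.76 without the first or second wild-type replicate at 90 min. Its limma adjusted p was 0.0907 and 0.0923 without the first or second GdX-deficient replicate at 90 min, 0.267 and 0.117 without the first or second wild-type replicate at 90 min, 0.149 with no filter on low values and 0.106 when only the 4 wild-type libraries were fitted. Without the first wild-type replicate at 6 h, 5 of the 6 copies were called, and 6.44% of all genes were called lower in that fit. After the rescaling, 4 copies were called, with an adjusted p of 0.00829 for Hbb-bt by limma, and 4.53% of all genes were called lower.

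In GdX-deficient spleen the 6 h library was below both 90 min libraries for all 6 copies. The log2 differences were -1.18 for Hba-a1, -1.12 for Hba-a2, -1.18 for Hbb-bs, -1.27 for Hbb-bt, -1.21 for Hbb-b1 and -1.24 for Hbb-b2. All 6 were at least 2-fold lower and outside the 90 min pair, as were 1.64% of tested genes. Without the first GdX-deficient replicate at 90 min, 4 of them were less than 2-fold lower (-0.91 for Hba-a1, -0.78 for Hba-a2, -0.94 for Hbb-bs and -0.99 for Hbb-b1 on the log2 scale). With 1 library at 6 h there is no replicate check. The d genes, abundant in this genotype, had differences of the same size as the s genes of the same libraries, 2.35-fold and 2.38-fold for Hbb-b1 and Hbb-b2 against 2.30-fold and 2.42-fold for Hbb-bs and Hbb-bt. A lower globin level can reflect fewer red cells and precursors or less RNA in each, and these cannot be told apart in whole spleen.

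Other globin genes were scarce. Hba-x, Hbb-y and Hbb-bh1, the embryonic genes, were at most 0.51 FPKM in any library and were not tested. Hbq1b, a theta gene of the alpha cluster, fell in wild type from 14.66 and 12.00 to 4.19 and 5.30 FPKM (log2 difference -1.32, SE 0.28, limma adjusted p = 0.0206) and measured 21.95 and 19.63 FPKM in GdX-deficient spleen at 90 min, then 17.01 FPKM. Hbq1a (-1.12, limma adjusted p = 0.129) and Hbb-bh2 (-0.17, limma adjusted p = 0.784) did not pass over time. None of these 3 tested genes had a call between genotypes.

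Genes that make heme, build the red cell membrane or mark red cell maturation were followed in 3 lists of 58 genes, of which 57 were tested; all lists were drawn up with earlier results known. Over time in wild type 30 of the 57 fell and none rose, where 6.32% of all tested genes were called lower, and the median log2 difference was -1.14 against 0.05 over all genes. The count was 14 without the second wild-type replicate at 90 min (2.85% of all genes called lower in that fit), 19 without the first (2.86%) and 15 with no filter on low values (2.22%). Markers of some other cells moved with them, those of neutrophils not. Cd79a of B cells fell (log2 difference -3.04, SE 0.30, limma adjusted p = 0.00128), and 4 of 5 T cell markers fell (6.32% of all genes). The summed B cell markers were 1293 to 1424 FPKM at 90 min and 456 to 457 FPKM at 6 h in wild type. Of 5 red pulp macrophage markers 2 fell, Spic and Vcam1 (-2.59 for Vcam1, limma adjusted p = 0.00129), with sums of 609 and 685 FPKM at 90 min against 300.4 and 325 FPKM. Of 5 markers of dividing cells 1 fell, Mki67 (-1.72, limma adjusted p = 0.00810), and the other 4 had log2 differences from -0.50 to -0.17. Of 5 megakaryocyte and platelet markers 1 fell, Ppbp (-0.89, limma adjusted p = 0.0487). None of the 5 neutrophil markers was called, with 2 positive, 3 negative and a median log2 difference of -0.10. The neutrophil sums were 1058 and 669 FPKM at 90 min against 1039 and 706 FPKM at 6 h. The part of cell mixture in the red cell result was not tested. In GdX-deficient spleen, with 1 library at 6 h, the median of the 57 was -0.46 against 0.25 over all genes. There 49 were negative and 8 positive. At least 2-fold lower and outside the 90 min pair were 4 of the 57, beside 1.64% of all genes, and 1 was higher.

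Of 17 genes of heme synthesis and iron supply 7 fell in wild type, against the same 6.32% of all genes, and 2 were called with the first or the second wild-type replicate at 90 min left out and 4 with no filter. Alas2, the first and rate-limiting enzyme of heme synthesis in red cell precursors, went from 346.22 and 385.18 to 131.32 and 179.82 FPKM, a log2 difference of -1.24 (SE 0.28, limma adjusted p = 0.0253). Slc25a37, the mitochondrial iron importer mitoferrin, fell by 1.68 on the log2 scale, and Fech, which inserts iron into the porphyrin ring, by 1.61 on that scale. Urod, Abcb10 and Tspo2 were also among those that fell. The abundant ferritin chains did not pass, with log2 differences of 0.69 for Fth1 and -0.60 for Ftl1.

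Of 18 genes of the red cell membrane and surface 13 fell (6.32% of all genes), and 6 were called without the second wild-type replicate at 90 min or with no filter. Rhd, a Rhesus protein, fell by 2.58 log2 units (SE 0.24, limma adjusted p = 0.000943), the lowest p-value of the 3 lists. Slc4a1, the anion exchanger band 3, went from 68.68 and 92.57 to 14.61 and 30.06 FPKM, a log2 difference of -1.87. Add2, Ank1, Aqp1, Dmtn, Epb42, Ermap, Icam4, Kel and Rhag were also among those that fell, whereas Epb41 and Gypc did not pass.

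Of 22 tested genes for red cell enzymes and maturation 10 fell (6.32% of all genes), and 6 were called without the second wild-type replicate at 90 min and 5 with no filter. Car2, a carbonic anhydrase, went from 263.3 and 255.77 to 44.29 and 55.3 FPKM, a log2 difference of -2.37. Bpgm, which makes the haemoglobin ligand bisphosphoglycerate, had a log2 difference of -1.28, and Klf1, the transcription factor that binds the CACCC box of beta-globin promoters, one of -1.89. Blvrb, Bnip3l, Cat, Epor, Hemgn, Tal1 and Trim10 fell as well. Isg20 (0.28) and Ube2l6 (-0.46) did not pass.

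Between genotypes at 90 min none of the 57 genes was called by limma, the lowest adjusted p being 0.520, although 36 had an unadjusted p under 0.05, as did 862 of all 11378 genes (7.58%). The difference was positive for 54 of 57, with a median of 0.79, against 56.5% positive and a median of 0.07 over all genes. Slc4a1 measured 206.67 and 181.25 FPKM in GdX-deficient spleen against 68.68 and 92.57 FPKM in wild type (log2 difference 1.27, SE 0.34, limma adjusted p = 0.520), and Alas2 at 779.2 and 573.94 against 346.22 and 385.18 FPKM (0.87, SE 0.28, limma adjusted p = 0.573). The list genes ran from -0.21 (Slc11a2) to 1.66. The alpha copies, at 0.11 for Hba-a1 and 0.06 for Hba-a2, and the beta sum, at 0.55, lay within that range, and Hbb-bs and Hbb-bt (-0.55 and -0.70) lay below it. The number of list genes called at 90 min was 14 when only the 4 libraries compared were fitted (1.59% of all genes in that fit), 8 and 10 without the first or second wild-type replicate at 6 h (1.38% and 1.48%), and 1 without the second wild-type replicate at 90 min (0.351%).

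With time as a covariate, which adds the 6 h libraries, 56 of the 57 genes had a positive genotype difference with a median of 1.07, beside 62.2% and 0.16 over all genes. None was called (lowest limma adjusted p 0.0915), though 45 had an unadjusted p under 0.05, as did 3071 of all genes. In this fit 0.0439% of genes were called. At 6 h 44 of the 57 were at least 2-fold higher in the GdX-deficient library and outside the wild-type pair, as were 16.5% of all genes. Summed markers of other cells were also higher in that library: 1658 against 456 and 457 FPKM for B cells, 309 against 189 and 143 FPKM for T cells, 548 against 300.4 and 325 FPKM for red pulp macrophages, and 2436 against 1039 and 706 FPKM for neutrophils. At 90 min none of the 5 neutrophil markers (S100a8, S100a9, Ly6g, Retnlg, Ltf) was called, and their sums overlapped, with 971 and 4593 FPKM for GdX-deficient against 1058 and 669 FPKM for wild-type spleen. Markers of dividing cells summed to 130.1 and 152 FPKM in the mutant against 88.4 and 90.6 FPKM. Their part in the red cell values was not tested.

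**Figure D4:**
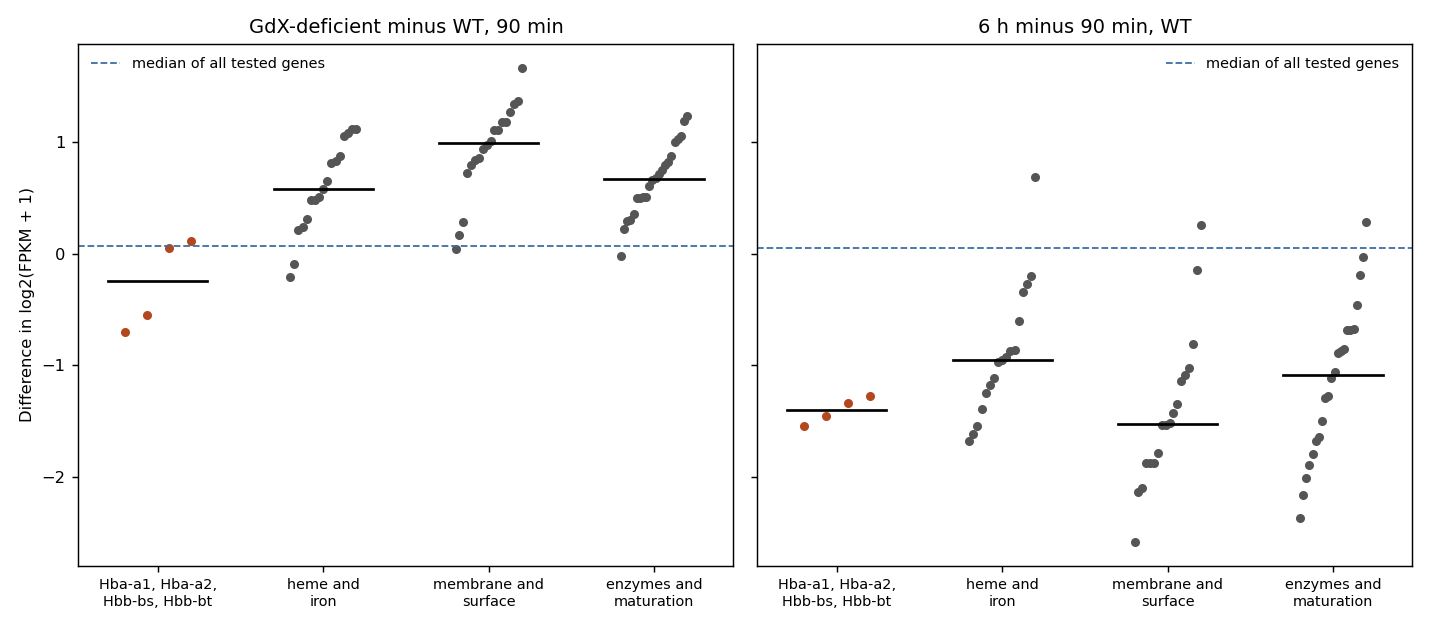
Log2 differences (FPKM + 1) of both alpha copies, of Hbb-bs and Hbb-bt, and of the genes of 3 red cell lists, for GdX-deficient minus wild type at 90 min (left) and 6 h minus 90 min in wild type (right); points are genes, black bars are medians, and the dashed line is the median of all tested genes. Over time the 4 globins and most list genes lie below 0, whereas between genotypes 54 of 57 list genes lie above 0 and the 4 globins between -0.70 and 0.11.

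The genes around each cluster were compared to see whether the large difference extended beyond Hbb-b1 and Hbb-b2. Among the 16 tested neighbours of the adult beta genes, 257 to 1602 kb away, the log2 differences between genotypes at 90 min ran from -0.33 to 0.93 with a median of 0.20; 14 of 16 were positive, against 56.5% of all genes. None was called, in a contrast with 0.0176% of genes called. The nearest were Olfr613, an olfactory receptor gene (-0.13, limma adjusted p = 0.892), and Trim34a, a TRIM family gene (0.55, limma adjusted p = 0.621). Among 16 neighbours of the alpha genes, 15.96 to 2512 kb away, they ran from -0.62 to 1.08, with 7 of 16 positive and none called, and Nprl3, the nearest, had 0.49 (limma adjusted p = 0.634). Over time in wild type 1 of 16 neighbours of each cluster fell, Stim1 near the beta genes (-1.21, limma adjusted p = 0.0349) and Lcp2 near the alpha genes (-1.14, limma adjusted p = 0.0288), a share close to the 6.32% of all genes. Npm1, near the alpha genes, rose (1.41, limma adjusted p = 0.0165), the 1 neighbour called higher, where 4.39% of all genes were.

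On the log2 scale Pearson's r was 0.997 for Hba-a1 with Hba-a2, 0.991 for Hbb-bs with Hbb-bt and 0.998 for Hbb-b1 with Hbb-b2. These are descriptions over shared libraries. Hba-a1 with Hba-a2 and Hbb-bs with Hbb-bt have near-identical coding sequence, and its part in these values was not tested. For Hbb-b1 and Hbb-b2 the value is set by the gap between genotypes, which was known when they were chosen, and so is the order of genes most like Hbb-b1. Between kinds it was 0.874 for Hba-a1 with Hbb-bs and -0.0835 for Hbb-bs with Hbb-b1. Outside the globins, Chic1 was most like Hbb-b1 (r = 0.965 over 7 libraries, 10939 genes compared), followed by Parpbp (0.951), Nlrp1b (0.950), Ankrd9 (0.944) and Kif14 (0.942). Their levels were low: Chic1 lay between 0.94 and 1.02 FPKM in wild type and between 1.32 and 1.5 FPKM in GdX-deficient spleen. Most like the alpha sum were Cmas, which activates sialic acid (r = 0.994, 34.71 to 85.17 FPKM), Ifi27 (0.978), Pigv (0.975), Hoxb4 (0.974) and Lrrc3 (0.970). They were picked as the highest of 10939 genes over 7 libraries. The red cell genes Alas2 (r = 0.747) and Slc4a1 (0.588) ranked 443 and 1155 in that order of genes.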

How the data were processed

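Whole-spleen RNA of 7 libraries was enriched by oligo-dT selection or rRNA depletion and sequenced on a BGISEQ-500, per the labels' protocols, which do not say which enrichment each library had. The authors deposited FPKM values per gene with 2 decimals, per the file headers. The submitters' processing notes name HISAT, HISAT2 2.0.4, Bowtie2, RSEM and the build GRCm38.p5, without the role of each. Levels were analysed as log2(FPKM + 1), so fold changes of low genes are understated. Genes with a mean of at least 1 FPKM were tested (11378 of 17920, all 6 globin copies among them; 1 symbol was listed more than once). For Hbb-b1 and Hbb-b2 the mean rests on the GdX-deficient libraries. limma 3.58.1 (R 4.3.3) fitted all 4 groups, or genotype with time as a covariate, with Benjamini-Hochberg adjustment over all tested genes and a threshold of 0.05; the code was tested on simulated data. Tables were made with Python 3.11.15. Comparisons with the GdX-deficient 6 h library alone have no test. The members, lists and tests were chosen with earlier results of these data known. Named genes were the 6 copies, the 4 most abundant genes of each list and list genes past a threshold; other genes were named as nearest neighbours, cell markers or the 5 most alike. Values of some list genes are counted but not reported here by name. Adult globin sequence was matched by symbol for 4 of 6 copies, Hbb-b1 and Hbb-b2 being named only. The estimated depth limits precision for counting error alone. Alternatives were a pseudocount of 0.1, other filters, rescaling without the 6 copies, quantile normalization, a block, a smaller fit and leaving out 1 library.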

Additional observations from a re-analysis of the deposited data

Results flagged for a closer look

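The ferritin light chain gene Ftl1 had values of opposite sign at the 2 times in the FPKM as deposited. GdX-deficient relative to wild type it had a log2 ratio of group means of -0.095 at 90 min and 0.51 at 6 h, with no overlap between genotypes at either time. Over time its log2 ratio was -0.58 in wild type and 0.024 in GdX-deficient spleen. After rescaling to an equal FPKM sum without the 6 globin copies, an alternative chosen after seeing the data, the opposite signs of Ftl1 were gone: it had 0.11 with overlap at 90 min and 0.81 at 6 h, and over time -0.72 and -0.023. The summed markers of megakaryocytes and platelets (Pf4, Ppbp, Itga2b, Gp9 and Gp1bb) did likewise: the log2 ratio between genotypes was -0.75 at 90 min and 0.43 at 6 h, and over time -0.63 in wild type and 0.55 in GdX-deficient spleen. After the same rescaling the signs of that sum were unchanged (-0.53, 0.73, -0.76 and 0.50 in the same order). Within limma Ftl1 had an adjusted p of 0.915 between genotypes at 90 min and 0.246 over time in wild type, so neither passed. Whether the effects differ between times or between genotypes was not tested.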

How the results depend on the processing

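The count of genes called between genotypes at 90 min was 2 (the 2 genes chosen by this contrast) and also 2 under the other scalings, pseudocount and filters. It was 181 when only the libraries compared were fitted and ranged from 2 to 169 when 1 library was left out (13 without the first GdX-deficient replicate at 90 min, 158 and 169 without the first or second wild-type replicate at 6 h, 6 and 40 without the first or second at 90 min). With time as a covariate it was 5 and ranged from 2 to 1660 (1660 without the first GdX-deficient replicate at 90 min, 240 without the second wild-type replicate at 90 min, 9 without the second at 6 h, 2 without the GdX-deficient 6 h library); that model uses all libraries, so it has no smaller fit. Over time in wild type 1218 genes were called, 708 after rescaling, 635 with no filter and from 455 to 1755 with 1 library left out (455 and 522 without the first or second wild-type replicate at 90 min). Globin copies called over time (1) numbered 4 after rescaling, 0 with no filter, 0 in the smaller fit and 0 to 5 with 1 library left out. The cause was not tested.

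Replicate numbers were not treated as pairs in the main fits. Deviations of the replicates correlated at -0.12 for GdX-deficient 90 min with wild type 90 min. The value was 0.08 for GdX-deficient 90 min with wild type 6 h. It was 0.77 for wild type 90 min with wild type 6 h, the groups of the tested time contrast. Whether those libraries share a factor by replicate number was not tested. With the replicate number as a block, 12 genes were called with time as a covariate (5 without it). Over time in wild type 2345 were called (1218 without it). The block fit called 4 globin copies over time (1 without it), where 11.2% of all genes were called lower.

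Quantile normalization gave 0 for Hba-a1, Hba-a2 and Hbb-bs over time in wild type, and in GdX-deficient spleen 0 for Hba-a1 and Hbb-b1 and 0.31 for Hba-a2, where the summed copies had -0.065, since it ties the most abundant ranks to fixed values. Rescaling gave 0.00021 for Hbb-bs and -0.14 for Hbb-bt between genotypes at 6 h and moved the median of all genes at 90 min from 0.07 to 0.25, that of the red cell lists to 0.93. Leaving out 1 library, the list medians ranged from 0.68 to 0.87 between genotypes and from -1.39 to -1.02 over time. The d share of the beta sum was 53.9% from Hbb-b1 and Hbb-bs alone and 54.1% to 54.3% with 1 library left out. The difference of alpha to beta ratios ranged from -0.59 to -0.34, and the summed copies over time in GdX-deficient spleen from -1.44 to -0.92. FPKM without counts gives no counting interval, and groups of 1 or 2 libraries limit every comparison.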
